A study of Homo sapiens with 18 samples.

Results

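The genes described here are 10 stress response genes around the transcription factor ATF4: ATF4, ATF3, DDIT3, CEBPB, CEBPG and ATF5, which encode basic leucine zipper transcription factors, and TRIB3, CHAC1, DDIT4 and SESN2, which act downstream. They were chosen by gene symbol, with earlier results of these data known. All 10 were found among the 26485 genes listed in each of the deposited expression tables. RNA sequencing was performed on PANC-1 cells, an established epithelial line from a human pancreatic ductal carcinoma, in 18 libraries of 6 groups with 3 libraries each. The sample labels name a first and a second run without saying what a run was. In the first run the groups were cells given a control siRNA, cells given PKR siRNA 1 and cells given PKR siRNA 2, each collected 72 h later. In the second run they were cells kept for 72 h in DMSO, the solvent, in 400 nM C16 or in 800 nM C16. PKR, encoded by EIF2AK2, is a kinase activated by double-stranded RNA, the siRNAs direct cleavage of its mRNA, and C16 is a small molecule inhibitor of its kinase activity. Since each run held its own treatments, the effect of the run cannot be told apart from that of using an siRNA or a drug, and levels were compared within a run. All groups were of the same cell line, and whether replicates were separate cultures is not given in the sources used here, so SDs and p-values describe the spread between libraries.

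PKR is 1 of the kinases that phosphorylate the translation factor eIF2α, alongside HRI (EIF2AK1), PERK (EIF2AK3) and GCN2 (EIF2AK4). Phosphorylated eIF2α lowers general protein synthesis but favours translation of the ATF4 mRNA, and ATF4 then switches on genes of amino acid supply, redox balance and, when stress persists, growth arrest and cell death. This is called the integrated stress response. The libraries measure mRNA, whereas ATF4 is controlled to a large extent at translation, so an ATF4 mRNA level is not a measure of ATF4 protein.

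ATF4 binds DNA paired with a C/EBP factor at a composite element with the letters TGATGCAA, and the 1000 bases upstream of each RefSeq start site were searched for it on both strands of hg38. It was found in 5 of the 10 genes and in 3.00% of 27305 genes with a RefSeq start. The looser form TGATGNAA, which contains the first, was found in 7 of the 10 genes and in 15.1% of all. A gene was counted if any of its windows matched, which favours genes with several starts. The 10 genes were chosen as genes around ATF4, so their share is a description and not a test. A match describes letters and not a bound site. The windows of 30 bases below are shown because they carry these matches in genes whose expression is described next, each on the strand of its gene, with the element in capitals. An element on the other strand reads as its reverse complement.
DDIT3 (chr12:57520802-57520831, minus strand): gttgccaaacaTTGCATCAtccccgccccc
CHAC1 (chr15:40953251-40953280, plus strand): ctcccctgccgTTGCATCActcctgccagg
TRIB3 (chr20:380881-380910, plus strand): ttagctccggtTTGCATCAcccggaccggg
CEBPG (chr19:33374060-33374089, plus strand): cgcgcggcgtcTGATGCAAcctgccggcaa
DDIT4 (chr10:72272967-72272996, plus strand): gtcctcggtccTGATGCAAccgtctggatc
SESN2 (chr1:28259211-28259240, plus strand): gtgaagtccctTTTCATCAcgcaaccctaa
ATF3 (chr1:212565205-212565234, plus strand): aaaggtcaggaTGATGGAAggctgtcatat
ATF3 (chr1:212614510-212614539, plus strand): tagtttcagctTGACGTCAagcctctttga

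The element began 306 bases upstream of the start site in DDIT3, 209 in CHAC1, 42 in CEBPG (of its RefSeq start at 33374113) and 946 in DDIT4. The deposited CEBPG gene model begins further upstream, at 33373669, so the CEBPG match lies within that gene, outside its exons. TRIB3 held 3 copies within a repeat with a period of 33 bases, the first beginning 403 bases upstream. The TRIB3 copies lie within an exon of the deposited TRIB3 gene model, in its 5′ UTR, because that model starts upstream of the RefSeq start. In GENCODE release 44 the CHAC1 match lies in a 5′ exon too, and the DDIT4 match lies in an exon of another gene. SESN2 and ATF3 held the looser form, 296 and 191 bases upstream. The last ATF3 window holds the cAMP response element TGACGTCA, the site of ATF/CREB dimers, 497 bases upstream of another RefSeq start of the gene. This element was found in 1 of the 10 genes and in 2.82% of all. The letters searched were not found in these windows of ATF4, ATF5 or CEBPB.

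The libraries held 1512940 to 1873906 reads on genes in the siRNA run and 894145 to 1474308 in the C16 run. A library held 12 to 767 reads of any of the 10 genes, so the counting error is largest for ATF3, CEBPB and CHAC1. EIF2AK2 stood at 97.4 ± 5.21 normalized counts in control siRNA libraries, against 11.1 ± 2.19 for PKR siRNA 1 and 8.65 ± 0.726 for PKR siRNA 2, and at 49.8 ± 4.20 with DMSO, 42.5 ± 3.26 with 400 nM and 49.9 ± 1.38 with 800 nM C16 (SD, n = 3 each). The epithelial keratins KRT8, KRT18 and KRT19 had group means of 562 to 4925 normalized counts. The other epithelial markers listed were lower, EPCAM at 10.7 to 103 and CDH1 at 11.7 to 56.1. Of 8 markers of other cell types, PTPRC, COL1A2 and INS were at 0 in every library and PECAM1, PRSS1 and ACTA2 had group means of at most 3.10, whereas CD68 (53.3 to 243) and COL1A1 (25.6 to 146) were expressed. The second control siRNA library had the lowest value of its group in 9 of the 10 genes.

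Per kilobase of exon, ATF4 was the most abundant of the 10 mRNAs with control siRNA (144 ± 23.1 normalized counts per kb, SD, n = 3) and DDIT4 with DMSO (151 ± 8.88). In the DMSO libraries the order then ran ATF4 (123 ± 7.41), ATF5 (50.3 ± 4.68), CEBPG (35.1 ± 2.93), DDIT3 (34.2 ± 1.24), TRIB3 (18.4 ± 0.669), SESN2 (14.6 ± 0.676), CHAC1 (14.1 ± 0.773), CEBPB (7.84 ± 1.99) and ATF3 (6.18 ± 0.617). The neighbours CEBPG and DDIT3, SESN2 and CHAC1, and CEBPB and ATF3 overlapped between libraries. With control siRNA, overlapping neighbours were DDIT4 and DDIT3, DDIT3 and ATF5, ATF5 and CEBPG, SESN2 and TRIB3, and CHAC1 and CEBPB. ATF3 was the least abundant in both.

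Changes below are given on the scale of log2 (normalized count + 1), on which a gene with few reads appears to change less than it did. They were tested across all genes of a table with limma and Benjamini-Hochberg adjustment, and a gene is called changed at an adjusted p under 0.05 and a fold over 1.5. Where 3 treated libraries lay beyond 3 controls, the exact permutation test gave p = 0.1 (two-sided), the smallest that 3 against 3 allow.

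**Figure D1:**
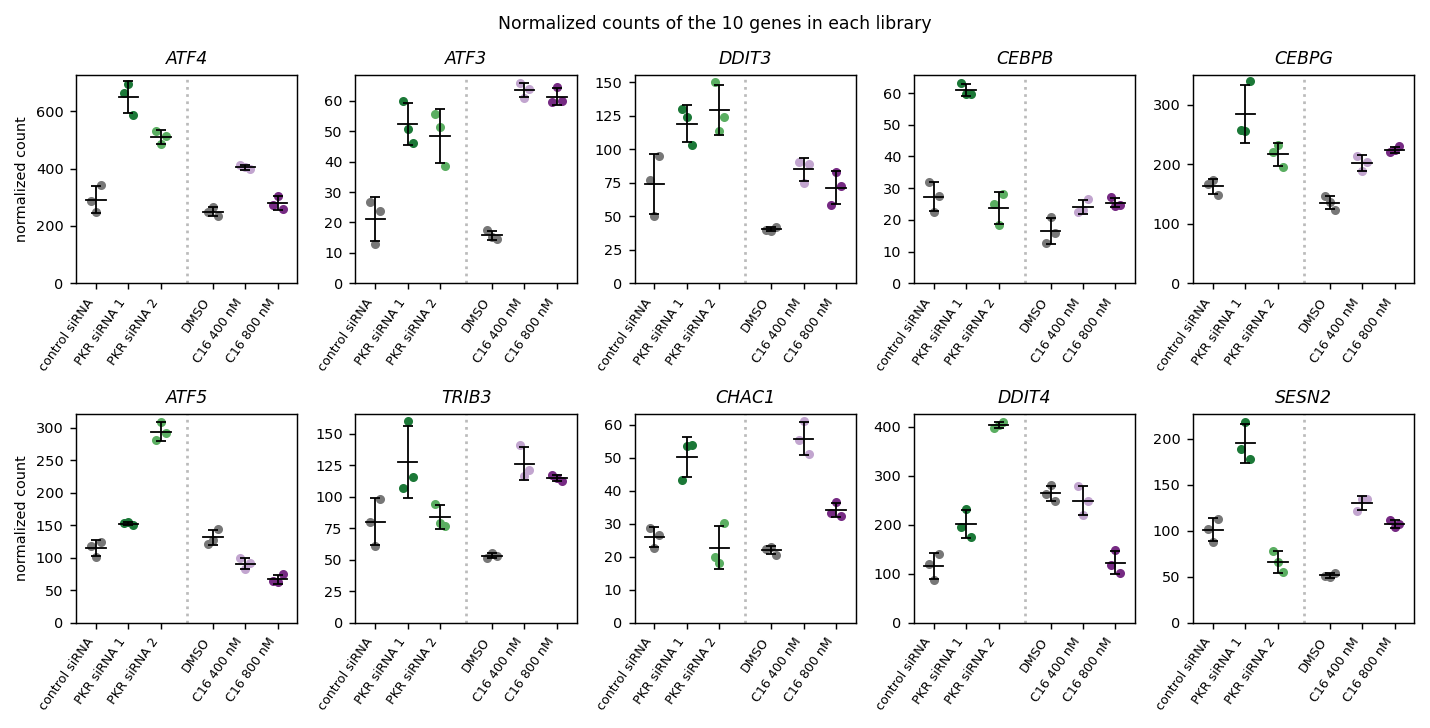
Normalized counts (vertical axes, from 0, one scale per gene) of the 10 genes in the 6 groups; points are libraries, horizontal lines are group means and bars are SDs (n = 3), and the dotted line separates the runs. The 3 libraries of PKR siRNA 2 for DDIT4 sit between 398 and 410, above all of the control siRNA libraries, while the 3 libraries of 800 nM C16 sit between 102 and 149, below all of the DMSO libraries.

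ATF4, the central factor, was upregulated by each PKR siRNA and by 400 nM C16, and not called at 800 nM. The gene is on chromosome 22 (39520559 to 39522686, plus strand). Libraries gave normalized counts of 287, 248 and 341 with control siRNA, 663, 696 and 588 for PKR siRNA 1 and 532, 486 and 514 for PKR siRNA 2. Every knockdown library lay above every control library, and every PKR siRNA 1 library lay above every PKR siRNA 2 library. The rise was 2.23-fold for PKR siRNA 1 (log2 1.16, SE 0.07, adjusted p = 2.22e-23) and 1.76-fold for PKR siRNA 2 (log2 0.82, SE 0.07, adjusted p = 6.47e-16). In the C16 run the values were 247, 266 and 236 with DMSO, 413, 404 and 397 with 400 nM, and 273, 306 and 258 with 800 nM. The 400 nM libraries stood clear of both other groups, while the 800 nM and DMSO libraries overlapped. ATF4 rose 1.62-fold at 400 nM (log2 0.70, SE 0.08, adjusted p = 8.77e-10). At 800 nM the log2 fold change was 0.16 (95% interval -0.01 to 0.32, adjusted p = 0.115).

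ATF3, a factor that ATF4 induces and that binds its own and other stress promoters, was upregulated by each of the 4 treatments, whose comparisons share a control within each run. It lies on chromosome 1 from 212565334 to 212620777. Its counts were 26.7, 12.9 and 23.7 with control siRNA, 60.0, 50.8 and 46.3 for PKR siRNA 1 and 55.7, 51.5 and 38.6 for PKR siRNA 2. They were 17.5, 15.2 and 14.5 with DMSO, 65.9, 61.1 and 63.8 with 400 nM, and 59.5, 64.6 and 60.1 with 800 nM. No treated library overlapped its controls, and the treated groups of a run overlapped each other. The log2 fold changes were 1.32 (SE 0.21, adjusted p = 9.37e-08) and 1.21 (SE 0.21, adjusted p = 7.14e-07) with the siRNAs. With C16 they were 1.95 (SE 0.18, adjusted p = 2.59e-13) at 400 nM and 1.90 (SE 0.18, adjusted p = 2.92e-13) at 800 nM.

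DDIT3 encodes CHOP, which pairs with C/EBP factors and is linked to cell death under lasting stress. The gene is on chromosome 12 (57516588 to 57520517, minus strand) and shares 5.77% of its exon bases with MARS, which is transcribed the other way, so reads there are uncertain if strand was ignored in counting. Counts were 77.0, 50.5 and 94.8 with control siRNA, 130, 124 and 103 for PKR siRNA 1 and 150, 114 and 124 for PKR siRNA 2. They were 39.8, 39.0 and 41.9 with DMSO, 90.4, 75.0 and 89.4 with 400 nM, and 58.5, 82.9 and 72.5 with 800 nM. Every treated library was above its controls, with a wide spread in the control siRNA group. DDIT3 rose 1.64-fold with PKR siRNA 1 (log2 0.72, SE 0.14, adjusted p = 7.15e-06), 1.78-fold with PKR siRNA 2 (log2 0.83, SE 0.14, adjusted p = 2.57e-07), 2.08-fold at 400 nM (adjusted p = 1.51e-07) and 1.74-fold at 800 nM (adjusted p = 1.83e-05). Without the low second control siRNA library these became 0.47 for PKR siRNA 1 and 0.58 for PKR siRNA 2 on the log2 scale, both under the fold threshold.

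CEBPB and CEBPG encode C/EBP proteins that can pair with ATF4. CEBPB, on chromosome 20 from 50190583 to 50192691, stood at 31.8, 22.6 and 27.5 normalized counts for the control siRNA, 63.3, 59.9 and 59.8 for PKR siRNA 1 and 24.9, 18.2 and 28.2 for PKR siRNA 2. The PKR siRNA 1 libraries formed a group of their own, and those of PKR siRNA 2 overlapped the controls. CEBPB rose 2.21-fold with PKR siRNA 1 (log2 1.14, SE 0.20, adjusted p = 2.12e-06) and was at -0.20 with PKR siRNA 2 (log2, 95% interval -0.60 to 0.20, adjusted p = 0.435). With C16 the counts were 12.6, 21.0 and 16.0 with DMSO, 22.3, 23.1 and 26.6 at 400 nM, and 27.2, 24.4 and 24.8 at 800 nM. The log2 fold change was 0.54 at 400 nM (adjusted p = 0.104) and 0.62 at 800 nM (SE 0.25, adjusted p = 0.0361). The call at 800 nM was lost in 5 of the fits that left out a library, with log2 values of 0.45 to 0.65, with a pseudocount of 5 (0.52), without the filter on low values (adjusted p = 0.0681) and under DESeq2 (adjusted p = 0.147). Of the CEBPB exon bases, 26.6% are shared with CEBPB-AS1 on the opposite strand.

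CEBPG, on chromosome 19 from 33373669 to 33382686, had counts of 166, 173 and 149 with control siRNA, 257, 256 and 340 for PKR siRNA 1 and 221, 233 and 196 for PKR siRNA 2. It was 146, 137 and 123 with DMSO, 214, 188 and 203 at 400 nM, and 220, 223 and 230 at 800 nM. All treated libraries were above their controls. CEBPG was called upregulated with PKR siRNA 1 (log2 0.79, SE 0.09, adjusted p = 2.54e-11) and at 800 nM (log2 0.73, SE 0.10, adjusted p = 7.32e-09). With PKR siRNA 2 (log2 0.41, adjusted p = 1.64e-04) and at 400 nM (log2 0.57, adjusted p = 4.56e-06) the change was under 1.5-fold. At 400 nM it passed without the first DMSO library (0.63) or the second 400 nM library (0.62).

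ATF5, a relative of ATF4 that is also controlled at translation, was higher than the controls in the libraries of both siRNAs and lower in those of both doses of C16. It lies on chromosome 19 from 49928702 to 49933936, and 2.88% of its exon bases are shared with IL4I1 on the opposite strand. Counts were 118, 101 and 124 with control siRNA, 153, 154 and 150 for PKR siRNA 1 and 281, 309 and 293 for PKR siRNA 2. The 3 groups did not overlap. ATF5 rose 2.56-fold with PKR siRNA 2 (log2 1.36, SE 0.10, adjusted p = 2.33e-21), and with PKR siRNA 1 the change was 1.33-fold (adjusted p = 1.98e-04), under the fold threshold. With C16 it was 122, 127 and 145 with DMSO, 98.9, 81.9 and 91.5 at 400 nM, and 63.6, 62.2 and 74.4 at 800 nM. Again no groups overlapped, here in descending order with dose. ATF5 fell by 0.96 on the log2 scale at 800 nM (SE 0.13, adjusted p = 5.89e-09), and at 400 nM the log2 fold change was -0.52 (adjusted p = 0.00118), under the fold threshold, though it passed without the first 400 nM library (-0.59).

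Among the downstream genes, TRIB3 encodes a pseudokinase that binds ATF4 and dampens it. TRIB3 lies on chromosome 20 from 380629 to 397559. Its counts were 80.1, 61.2 and 98.6 with control siRNA, 107, 161 and 116 for PKR siRNA 1 and 94.5, 79.4 and 77.1 for PKR siRNA 2. The libraries of PKR siRNA 1 were above the controls, the second of them well above the other two, and those of PKR siRNA 2 lay within the control range. TRIB3 was called upregulated with PKR siRNA 1 (log2 0.67, SE 0.14, adjusted p = 3.00e-05) and was at 0.08 with PKR siRNA 2 (95% interval -0.19 to 0.36, adjusted p = 0.641). The PKR siRNA 1 call was lost without the second control siRNA library (0.49) or the second PKR siRNA 1 library (0.50). With C16 TRIB3 rose from 51.5, 55.2 and 52.5 with DMSO to 141, 117 and 121 at 400 nM and 117, 115 and 113 at 800 nM. These are changes of 2.35-fold (log2 1.23, SE 0.12, adjusted p = 4.94e-12) and 2.14-fold (log2 1.10, SE 0.12, adjusted p = 9.16e-11).

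CHAC1 encodes an enzyme that degrades glutathione. It lies on chromosome 15 from 40953438 to 40956519. Counts were 28.8, 22.6 and 26.5 with control siRNA, 43.3, 53.5 and 54.0 for PKR siRNA 1 and 19.9, 18.2 and 30.1 for PKR siRNA 2. They were 22.4, 22.9 and 20.6 with DMSO, 55.3, 61.1 and 51.1 at 400 nM, and 33.3, 36.6 and 32.4 at 800 nM. CHAC1 was high with PKR siRNA 1, within or near the control range with PKR siRNA 2, and higher at the lower dose of C16 than at the higher dose. It rose with PKR siRNA 1 (log2 0.93, SE 0.21, adjusted p = 2.09e-04), at 400 nM (1.31, SE 0.19, adjusted p = 2.81e-07) and at 800 nM (0.61, SE 0.19, adjusted p = 0.00776), and was at -0.21 with PKR siRNA 2 (95% interval -0.64 to 0.22, adjusted p = 0.439). The 800 nM call was lost with a pseudocount of 5 (0.54), under DESeq2 (adjusted p = 0.0664), and without the third DMSO library (0.57) or the second 800 nM library (0.56).

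DDIT4 encodes REDD1, an inhibitor of the growth kinase mTORC1. It lies on chromosome 10 from 72273919 to 72276039 and had counts of 120, 87.0 and 140 with control siRNA, 196, 231 and 175 for PKR siRNA 1 and 398, 403 and 410 for PKR siRNA 2. The 3 groups did not overlap. The rise was 1.75-fold with PKR siRNA 1 (log2 0.80, SE 0.10, adjusted p = 2.11e-10) and 3.53-fold with PKR siRNA 2 (log2 1.82, SE 0.10, adjusted p = 4.34e-27). In the C16 run DDIT4 was 262, 280 and 249 with DMSO, 279, 219 and 248 at 400 nM, and 117, 149 and 102 at 800 nM. The 400 nM libraries overlapped DMSO, and the 800 nM libraries lay below both. DDIT4 fell by 1.12 on the log2 scale at 800 nM (SE 0.10, adjusted p = 1.24e-13) and was at -0.09 at 400 nM (95% interval -0.30 to 0.12, adjusted p = 0.560).

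SESN2 encodes Sestrin 2, a leucine sensor that also restrains mTORC1. It lies on chromosome 1 from 28259452 to 28282491. Counts were 102, 88.1 and 113 with control siRNA, 189, 219 and 178 for PKR siRNA 1 and 77.6, 65.4 and 54.6 for PKR siRNA 2. The siRNAs lay on opposite sides of the control. SESN2 rose 1.93-fold with PKR siRNA 1 (log2 0.95, SE 0.12, adjusted p = 4.41e-10) and fell by 0.61 on the log2 scale with PKR siRNA 2 (SE 0.12, adjusted p = 1.61e-05). The fall was under the fold threshold if the third library of control siRNA (-0.53) or of PKR siRNA 2 (-0.49) was left out. With C16 SESN2 went from 50.5, 49.5 and 54.1 with DMSO to 121, 135 and 134 at 400 nM and 112, 104 and 107 at 800 nM. The rise was 2.50-fold (log2 1.32, SE 0.13, adjusted p = 4.28e-13) and 2.07-fold (log2 1.05, SE 0.13, adjusted p = 3.50e-10).

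**Figure D2:**
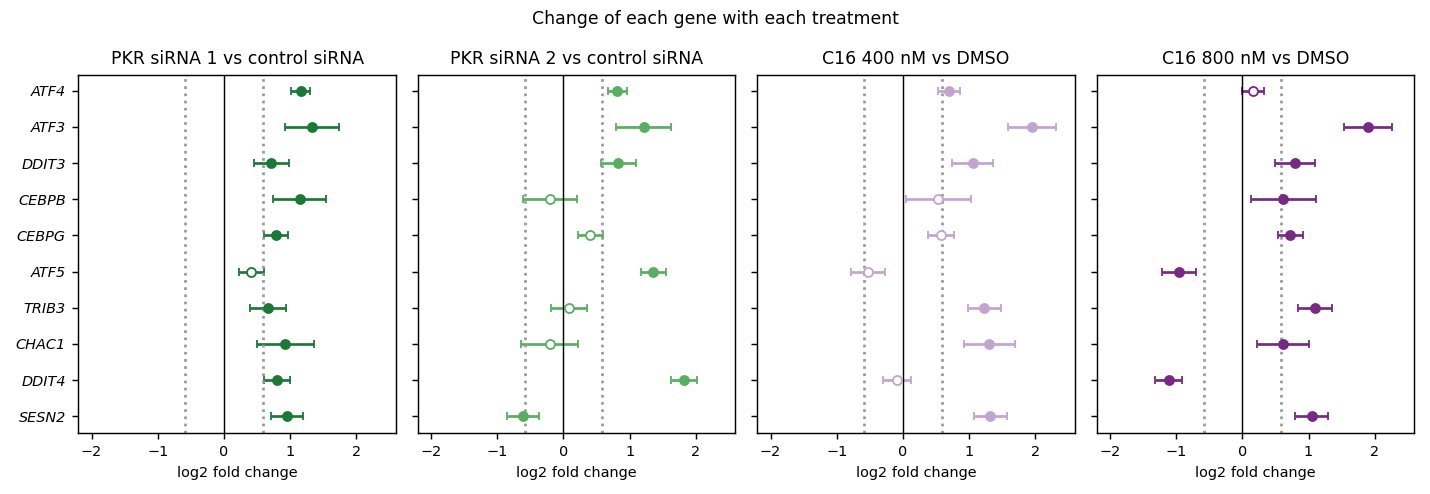
Log2 fold change (horizontal axes) of each gene with each treatment against its control; points are limma estimates with 95% intervals (n = 3 libraries a group), filled where the gene was called, and dotted lines mark 1.5-fold. With PKR siRNA 1 all 10 points lie to the right of 0 and 9 are filled, while ATF5 and DDIT4 lie to the left at 800 nM C16.

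Counted together, 9 of the 10 genes were upregulated and 0 downregulated by PKR siRNA 1, against 8.53% of the 10593 genes tested called higher and 12.6% called lower. PKR siRNA 2 upregulated 5 (ATF4, ATF3, DDIT3, DDIT4 and ATF5) and downregulated 1 (SESN2), against 10.8% called higher and 12.8% lower. C16 at 400 nM upregulated 6 (ATF4, ATF3, DDIT3, TRIB3, CHAC1 and SESN2) and downregulated 0, against 7.08% of the 9963 genes tested called higher and 5.45% lower. C16 at 800 nM upregulated 7 (ATF3, DDIT3, CEBPB, CEBPG, TRIB3, CHAC1 and SESN2) and downregulated 2 (DDIT4 and ATF5), against 11.6% called higher and 14.1% lower. The 10 genes, and the lists below, were chosen with earlier results of these data known. Their counts beside those of all genes are therefore a description and not a test. The median log2 fold change of the 10 genes was 0.87 with PKR siRNA 1, 0.61 with PKR siRNA 2, 0.87 at 400 nM and 0.67 at 800 nM, where the median of all genes tested was -0.01, -0.01, 0.00 and 0.00. Without the second control siRNA library, 7 genes were called higher with PKR siRNA 1 and 4 with PKR siRNA 2. At 800 nM, 5 were called higher without the third DMSO library or the second 800 nM library, with a pseudocount of 5 or under DESeq2, each time without CEBPB and CHAC1. Over all genes, leaving out a library gave 1102 to 1166 higher at 800 nM and DESeq2 gave 1015, against 1158 in the main fit.

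The siRNAs were next compared with each other, since they share a target. EIF2AK2 itself differed by -0.31 on the log2 scale between PKR siRNA 2 and PKR siRNA 1 (adjusted p = 0.282). With PKR siRNA 2, DDIT4 was 2.02-fold (log2 1.02, SE 0.10, adjusted p = 1.88e-14) and ATF5 1.92-fold (log2 0.94, SE 0.10, adjusted p = 3.71e-14) the level with PKR siRNA 1. SESN2 (-1.56, SE 0.12, adjusted p = 2.90e-19), CEBPB (-1.34, SE 0.20, adjusted p = 2.68e-08), CHAC1 (-1.14, SE 0.21, adjusted p = 4.39e-06) and TRIB3 (-0.59, SE 0.14, adjusted p = 1.64e-04) were lower. Thus 2 genes were called higher and 4 lower, against 16.4% and 15.3% of all genes tested. ATF4 (-0.34, adjusted p = 5.21e-05) and CEBPG (-0.38, adjusted p = 3.12e-04) were lower by less than 1.5-fold. ATF3 (-0.11, 95% interval -0.52 to 0.29) and DDIT3 (0.11, 95% interval -0.15 to 0.38) overlapped between the siRNAs. The TRIB3 difference stood near the fold threshold and was under it without the second PKR siRNA 1 library (-0.41), or the second (-0.55) or the third (-0.53) PKR siRNA 2 library.

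Between the doses of C16, 0 genes were called higher at 800 nM than at 400 nM and 2 lower, against 1.13% and 3.95% of all genes tested. The calls were DDIT4 (-1.02, SE 0.10, adjusted p = 3.33e-11) and CHAC1 (-0.69, SE 0.19, adjusted p = 0.0100), and that of CHAC1 was lost without the second 400 nM library (-0.63, adjusted p = 0.0591) and under DESeq2 (-0.70, adjusted p = 0.0646). ATF4 (-0.54, adjusted p = 2.61e-06) and ATF5 (-0.44, adjusted p = 0.0132) were lower at 800 nM by less than 1.5-fold, ATF4 passing without the second 800 nM library (-0.61). The intervals of the others ran from -0.41 to 0.31 for ATF3, -0.56 to 0.05 for DDIT3, -0.41 to 0.58 for CEBPB, -0.04 to 0.35 for CEBPG, -0.38 to 0.12 for TRIB3 and -0.52 to -0.02 for SESN2 (adjusted p = 0.140).

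**Figure D3:**
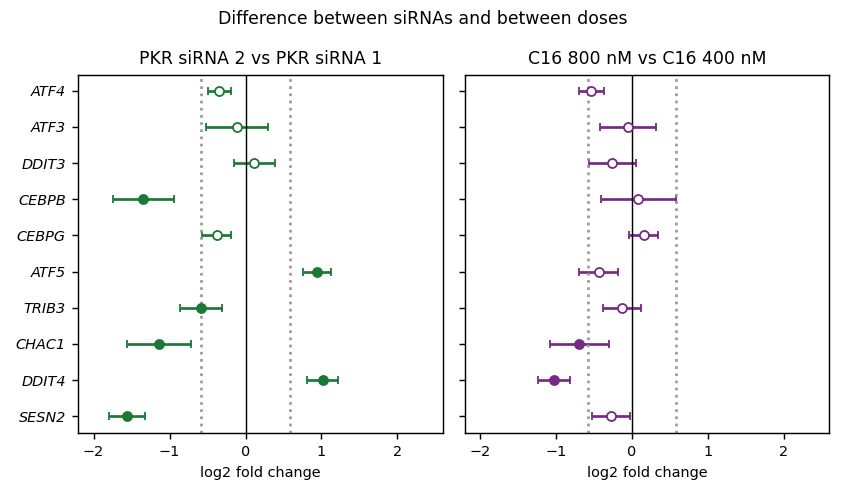
Log2 difference (horizontal axes) of each gene between the siRNAs and between the doses; points are limma estimates with 95% intervals (n = 3 libraries a group), filled where called, and dotted lines mark 1.5-fold. DDIT4 and ATF5 lie to the right and SESN2, CEBPB, CHAC1 and TRIB3 to the left for PKR siRNA 2 against PKR siRNA 1, and DDIT4 lies furthest left, at -1.02, for 800 nM against 400 nM.

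Across the 18 libraries, each taken relative to the mean of its own control, the pairs moved to different degrees. Pearson's r was 0.96 for DDIT4 and ATF5, 0.92 for ATF3 and DDIT3, 0.89 for TRIB3 and SESN2 and 0.88 for CHAC1 and SESN2. SESN2 and ATF5 had the lowest value, -0.72. These values describe the libraries, which share treatments and controls in groups of 3. Each r joins both runs, so it also holds the difference between siRNA and C16 effects, which cannot be told apart from the run. DDIT4 and ATF5, for example, rose with PKR siRNA 2 (1.82 and 1.36) and fell at 800 nM C16 (-1.12 and -0.96). No r was taken within a run. Among 9821 genes tested in both tables, those most like ATF4 were EIF1 (0.91), TCF19 (0.90) and TXLNA (0.90). Those most like ATF3 were HSPA5 (0.96), FOSL2 (0.94) and DDIT3 (0.92), and those most like DDIT3 were HES4 (0.92), ATF3 (0.92) and UHRF1BP1 (0.91). HSPA5 encodes BiP, the main chaperone of the endoplasmic reticulum, and EIF1 a factor of start codon selection.

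**Figure D4:**
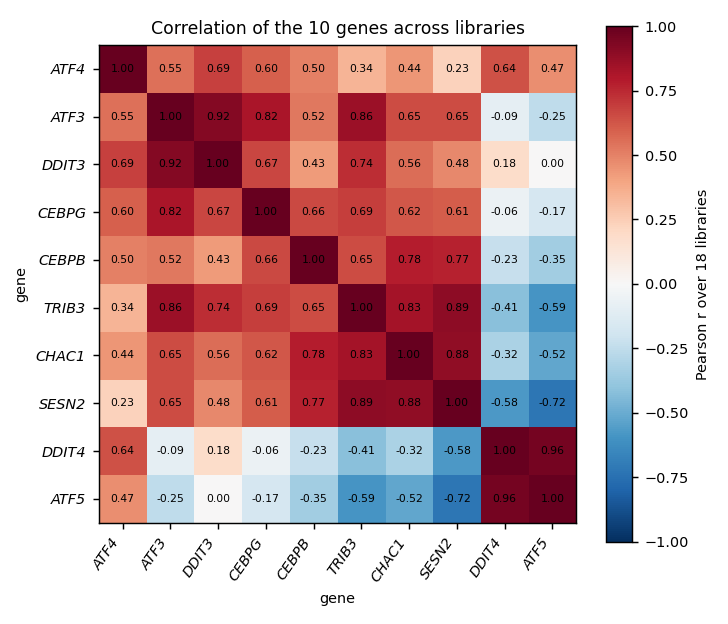
Pearson's r between each pair of the 10 genes over the 18 libraries of both runs joined, on the log2 scale relative to the mean of the control libraries of the same run. Red is positive and blue negative, and differences between the runs enter each value. DDIT4 and ATF5 form a pair (0.96) with negative values against TRIB3, CHAC1 and SESN2.

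Upstream of ATF4, the mRNAs of the kinases and phosphatase subunits were measured as well. Their levels do not measure kinase activity or the phosphorylation of eIF2α. EIF2AK3 (PERK) rose with PKR siRNA 1 (0.76, adjusted p = 0.00219), PKR siRNA 2 (0.90, adjusted p = 2.53e-04) and 800 nM C16 (0.96, adjusted p = 0.00130), and was at 0.27 at 400 nM (adjusted p = 0.459). EIF2AK1 and EIF2AK4 had log2 fold changes from -0.44 to 0.20 and were not called in any treatment, nor was EIF2S1, which encodes eIF2α (-0.12 to 0.54). PPP1R15A, the stress-induced subunit that directs dephosphorylation of eIF2α, rose with PKR siRNA 1 (1.29, adjusted p = 5.93e-15), at 400 nM (1.20, adjusted p = 1.48e-07) and at 800 nM (0.92, adjusted p = 1.39e-05), and with PKR siRNA 2 was at 0.48 (adjusted p = 6.75e-04), under the fold threshold. PPP1R15B, the constitutive subunit, rose at 400 nM (0.96) and 800 nM (0.93, adjusted p = 4.79e-09) and was not called with either siRNA (-0.21 and 0.18).

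Of 18 tested targets of ATF4 in amino acid supply, 5 rose and 0 fell with PKR siRNA 1, 3 rose and 3 fell with PKR siRNA 2, 10 rose and 0 fell at 400 nM, and 8 rose and 1 fell at 800 nM. Of all genes tested, 8.53%, 10.8%, 7.08% and 11.6% were called higher and 12.6%, 12.8%, 5.45% and 14.1% lower with these treatments, so the PKR siRNA 2 counts of this list were near the background. Its median log2 fold changes were 0.34, 0.04, 0.75 and 0.51. The largest changes were those of SLC1A4, a neutral amino acid transporter (1.18), and SHMT2, a serine-metabolizing enzyme of mitochondria (1.05), with PKR siRNA 1. With PKR siRNA 2 they were SLC38A2, a glutamine transporter (0.98), and PHGDH, the first enzyme of serine synthesis (-0.86). With C16 they were SLC7A11, the cystine importer (1.53), and SLC1A4 (1.36) at 400 nM, and GPT2 (1.51) and SHMT2 (1.38) at 800 nM. Of 12 aminoacyl-tRNA synthetases, 2, 0, 5 and 4 rose with the 4 treatments in the same order and 0 fell, to be read against the same shares of all genes. SARS (0.71) and CARS (0.62) led for PKR siRNA 1, GARS (0.87) and SARS (0.79) at 400 nM, and GARS (0.83) and YARS (0.64) at 800 nM.

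Of the other integrated stress response targets, 8 of 17 tested rose and 2 fell with PKR siRNA 1, and 4 rose and 5 fell with PKR siRNA 2. With C16, 11 of 18 rose and 1 fell at 400 nM, and 11 rose and 2 fell at 800 nM. Called higher among all genes were 8.53%, 10.8%, 7.08% and 11.6%, and called lower 12.6%, 12.8%, 5.45% and 14.1%, so the 2 lower with PKR siRNA 1 were near the background. GDF15, a secreted stress signal, was called lower with PKR siRNA 1 (-1.61) and PKR siRNA 2 (-0.79), and rose by 2.05 at 400 nM and 1.56 at 800 nM. NUPR1, a chromatin-binding stress protein, rose from 7.53 to 78.7 normalized counts under PKR siRNA 2 (log2 3.27, adjusted p = 1.45e-18) and fell from 30.8 to 9.07 at 800 nM (log2 -1.72, adjusted p = 1.21e-06). ERO1A, an oxidase of protein folding, was at -2.30 with PKR siRNA 2, JDP2, a repressor related to ATF3, at 1.53 with PKR siRNA 1, and STC2 at 1.52 at 400 nM, each called. Medians were 0.45, -0.12, 0.86 and 0.70 with the 4 treatments.

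The chaperone arm of the endoplasmic reticulum, listed here as the arm of ATF6 and XBP1, served for comparison. Whether ATF4 also acts on its genes, HERPUD1 and HSPA5 among them, was not tested. Of its 18 genes, 2 rose and 0 fell with PKR siRNA 1, 2 rose and 2 fell with PKR siRNA 2, and 6 rose and 0 fell at each dose of C16. The siRNA counts were near the background of 8.53% higher for PKR siRNA 1, and of 10.8% higher and 12.8% lower for PKR siRNA 2, while 7.08% and 11.6% of all genes were called higher at 400 nM and 800 nM. Medians were 0.18, 0.01, 0.41 and 0.45. HERPUD1, of the degradation pathway, rose with PKR siRNA 1 (0.70) and PKR siRNA 2 (1.13), SDF2L1 fell with PKR siRNA 2 (-0.87), HYOU1 (0.65) and HSPA5 (0.62) rose at 400 nM, and DNAJB9 (1.09) at 800 nM. MANF, a secreted folding factor, rose with PKR siRNA 1 (0.66) and at 800 nM (0.72).

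**Figure D5:**
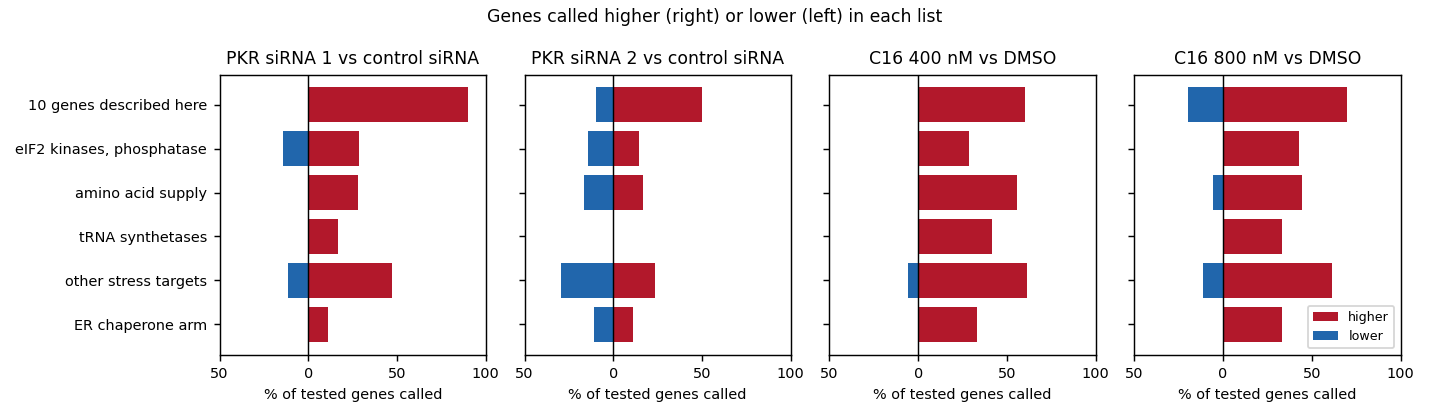
Percent of the tested genes of each list (rows) called higher (red, to the right) or lower (blue, to the left) with each treatment; PPP1R15A and CARS each stand in 2 of the lists shown, which hold 7 to 18 tested genes. The amino acid supply and tRNA synthetase lists have no bar to the left at 400 nM C16, and the tRNA synthetase list has no bar at all with PKR siRNA 2. The blue bar of the eIF2 list with each siRNA is EIF2AK2 alone, the target of the siRNAs. The shares of all genes are given in the text and not drawn.

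Of the 13 paralogs of the 10 genes, 5 were expressed highly enough to be tested. JDP2 rose with PKR siRNA 1, at 400 nM (1.26, adjusted p = 1.28e-06) and at 800 nM (0.86, adjusted p = 3.25e-04), and fell by 0.74 with PKR siRNA 2 (adjusted p = 0.0236), where its libraries overlapped the controls. CHAC2, the constitutive relative of CHAC1, rose with PKR siRNA 1 (1.48, adjusted p = 2.50e-06). The markers of cell identity moved beside these changes. EPCAM fell from 103 to 12.3 and 10.7 normalized counts with the siRNAs, KRT8 was at 2527 with control siRNA, 1294 under PKR siRNA 1 and 4925 under PKR siRNA 2, CDH1 was at 18.7, 11.7 and 56.1 in the same order, and KRT19 fell from 1582 with DMSO to 841 at 400 nM and 562 at 800 nM C16. In the same libraries EPCAM was at 17.8 with DMSO, 25.7 at 400 nM and 30.3 at 800 nM, called higher at 800 nM (0.74, adjusted p = 0.00866), and CDH1 was at 30.9, 17.8 and 19.9, called lower at 400 nM (-0.74, adjusted p = 0.0218) and 800 nM (-0.64, adjusted p = 0.0332). KRT8 was at 4361, 3859 and 3378 and KRT18 at 1440, 1505 and 1444, neither called. COL1A1 fell with PKR siRNA 1 (-1.86) and at 800 nM (-1.08), and CD68 rose at 400 nM (1.55) and 800 nM (1.10). Their part in the changes of the 10 genes was not tested.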

How the data were processed

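The authors mapped paired-end reads of poly(A) RNA libraries, made with a directional kit, on hg38 (TopHat), counted them per gene (featureCounts) and normalized each run separately (TCC, TMM). What was deposited is therefore a normalized signal per gene (reads divided by a factor per library), called normalized counts here. Versions, annotation and the strand setting of counting are not given in the sources used here. Within each library 100% of the values were whole multiples of 1 read, so reads were recovered for the alternatives, and 0 columns belonged to no sample. For the first library of PKR siRNA 2 and of 800 nM C16, 1 read is worth almost 1, so that rounding could hide an error in the multiples.

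The test was limma 3.58.1 (R 4.3.3, lmFit, eBayes with a trend) of log2 (normalized count + 1), two-sided, with the 9 libraries of a table in the fit and the genes with a mean of at least 10 (10593 and 9963 genes), Benjamini-Hochberg adjusted over all of them. This covers 6 comparisons. Replicates differed by more than sampling noise (chi-square per degree of freedom 1.03 to 1.63), and none were merged. Alternatives were a pseudocount of 0.5 or 5, testing every gene, a mean of at least 30, rescaling by median of ratios, a fit of the compared groups alone, a replicate block, quasi-likelihood edgeR 4.0.16 and DESeq2 1.42.0 on the reads, no fold threshold, and each library left out. Scripts were tested on simulated data. The genes, lists and tests were chosen with earlier results of these data known. Besides the 10 genes, EIF2AK2 and the genes of the eIF2 list, the text names from each list the 2 called genes with the largest change per treatment, and the 3 genes most like ATF4, ATF3 and DDIT3. Promoter sequences are hg38 upstream of RefSeq starts.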

Additional observations from a re-analysis of the deposited data

Results flagged for a closer look

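Effects that differed between the siRNAs, which share a target, or between the doses of C16, were tested directly in the limma fit. With PKR siRNA 2 against PKR siRNA 1, the log2 differences were -1.56 for SESN2, -1.34 for CEBPB, -1.14 for CHAC1, -0.59 for TRIB3, 1.02 for DDIT4 and 0.94 for ATF5. With 800 nM against 400 nM C16, they were -1.02 for DDIT4 and -0.69 for CHAC1. Of all genes tested, 16.4% were called higher and 15.3% lower between the siRNAs, and 1.13% and 3.95% between the doses. The higher calls between the siRNAs, DDIT4 and ATF5, were thus near the background. TRIB3 stood near the fold threshold and fell under it in several alternatives. The CHAC1 call between the doses was lost under DESeq2 and without the second 400 nM library. SESN2 lay above the control siRNA in every PKR siRNA 1 library and below it in every PKR siRNA 2 library, whereas the other genes with a difference between the siRNAs did not fall on opposite sides of the control in this way.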

How the results depend on the processing

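For single genes, 1097 of the log2 fold changes kept their direction and side of the thresholds under the alternatives, 25 fell below a threshold, 12 came to pass, and 3 changed sign. Part of this tally was fixed in advance. The filters, the fit of the compared groups alone, the replicate block and leaving out a library of an uncompared group keep the log2 fold change. Under these only the adjusted p could change, and dropping the fold threshold could only add calls. The sign changes came from leaving out a library and touched no call. TRIB3 with PKR siRNA 2 ran from -0.0921 without the second control siRNA library to 0.247, with -0.01 without the first PKR siRNA 2 library, and ATF3 between the siRNAs from -0.220 to 0.0396, the last without the third PKR siRNA 2 library. With libraries left out, the number of the 10 genes called lower ran from 0 to 1 for PKR siRNA 2, 0 to 1 at 400 nM and 1 to 3 for 800 nM against 400 nM, where DESeq2 gave 1 (DDIT4, without CHAC1). Over all genes, the fits with a library left out called 1300 to 1358 lower for PKR siRNA 2, 441 to 578 at 400 nM and 298 to 384 between the doses. Without a fold threshold, 1 of the 10 was lower at 400 nM and 4 between the doses, against 1187 and 915 of the 9963 genes tested. Libraries with the same replicate number did not correlate between groups (r of -0.05 to 0.03). Most replicates differed by little more than sampling noise, so this cannot exclude pairing. With a replicate block the counts of the 10 genes stayed at 9 higher with PKR siRNA 1, 5 with PKR siRNA 2, 6 at 400 nM and 7 at 800 nM. Over all genes, 905 and 1136 of 10593 were then higher with the siRNAs, and 699 and 1158 of 9963 with C16.

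Over all genes, dropping the fold threshold gave 2240 higher and 2530 lower with PKR siRNA 1 (904 and 1331 with it), 2344 and 2669 with PKR siRNA 2 (1140 and 1353), 2932 and 3104 between the siRNAs (1740 and 1622), 1458 and 1187 at 400 nM (705 and 543), 2220 and 2251 at 800 nM (1158 and 1403), and 507 and 915 between the doses (113 and 394). A minimum mean of 30, which tests fewer genes, gave 296, 800 and 231 lower for 400 nM, 800 nM and the doses, and DESeq2 gave 51 higher and 137 lower between the doses. The quasi-likelihood test on the recovered reads called 954 higher and 1310 lower with PKR siRNA 1, 1240 and 1319 with the second siRNA, 700 and 619 at 400 nM, and 1229 and 1425 at 800 nM. TRIB3 between the siRNAs was under the fold threshold with a pseudocount of 5 (-0.57) or median-of-ratios rescaling (-0.58). The causes were not tested. With 12 to 767 reads per gene and library, changes of ATF3, CEBPB and CHAC1 well under 1.5-fold are limited by depth.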
